A study of Homo sapiens with 22 samples.

Results

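The interval described here runs from SMCHD1 to DLGAP1 on chromosome 18 of hg38, with EMILIN2, LPIN2, MYOM1, MYL12A, MYL12B and TGIF1 between them. It was chosen because pooled transposon insertions were dense there. Its members are the 210 bins of 5 kb from chr18:2800001-3850000, of 606219 such bins on chromosomes 1 to 22 and X, and the 6 genes that lie between SMCHD1 and DLGAP1. The insertions came from K562, a human leukemia cell line, in 10 libraries made with the helper hyPBase and 10 made with hyPBase-centrip. All cells received 5 µg of a donor plasmid that carries a barcoded piggyBac self-reporting transposon and a puromycin resistance gene, 5 µg of helper plasmid, and puromycin at 2 µg/ml for 11 days, with 3 transfections per dish. The labels name no transcription factor fused to either helper, a transposase. What sets hyPBase-centrip apart is not described in the sources used here. A single cell line was used, no library without helper was analysed here, and the labels do not say that the libraries came from separate cultures, so p-values measure only the spread between these libraries.

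The piggyBac transposase inserts its transposon at TTAA tetranucleotides. The self-reporting transposon is transcribed into the flanking genome, and an insertion is read from that RNA, so each record carries a position, an orientation, a barcode and a read count. The genes of the interval have varied roles. EMILIN2 is a glycoprotein of the extracellular matrix, LPIN2 is a lipin that dephosphorylates phosphatidate, and MYOM1 is myomesin of the sarcomeric M-band. MYL12A and MYL12B encode regulatory light chains of nonmuscle myosin II, and TGIF1 is a homeobox repressor that acts in TGF-beta signalling.

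The sequences of the 10 TTAA sites with the most insertions are shown because these sites were the fullest. They are among 15 sites, described below, that together held 9.59% of the insertions of the interval. Each is 30 bases of the plus strand of hg38, 5′ to 3′, with the TTAA in capitals, and sites are numbered by the pooled insertions they held.
site 1: caacaaatgtactTTAAatactagcacagt
site 2: atcaggaagaagcTTAAatgactcttcttg
site 3: aaatgaagtcattTTAAtattcttggggtt
site 4: ttggatagttactTTAAagtatcttatctc
site 5: ttttgtactttccTTAAattcttcttcctt
site 6: agatcctacagttTTAAtgttatcttctgg
site 7: cacagcaacttccTTAActcaaggtttctc
site 8: tgactgctcataaTTAAgattgctgttgcc
site 9: ggactttctctttTTAAtaagattcatcgt
site 10: cagcctcccctgaTTAAgtgaggatgaaga
Site 1 lay at chr18:3603708-3603711, in an intron of DLGAP1 and an exon of the long noncoding RNA gene DLGAP1-AS2, and held 794 insertions. Sites 2, 3, 5 and 10 lay within ENSG00000266401, another long noncoding RNA gene inside DLGAP1, and sites 4, 6 and 7 within DLGAP1-AS2. Site 9, at chr18:3246915-3246918, lay outside DLGAP1, unlike the other 9, and just before the start of MYL12A. A T before and an A after the TTAA were present at 2 of these 10 sites and at 20.9% of all sites of the interval.

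The densest 300 bases of the interval, chr18:3655379-3655678, held 4 TTAA sites and 2244 insertions, which is 2.46% of the insertions of the interval. They lay in an intron of DLGAP1 and reached into an exon of ENSG00000266401. The sequence is that of the plus strand, with the TTAA sites in capitals.
densest 300 bases: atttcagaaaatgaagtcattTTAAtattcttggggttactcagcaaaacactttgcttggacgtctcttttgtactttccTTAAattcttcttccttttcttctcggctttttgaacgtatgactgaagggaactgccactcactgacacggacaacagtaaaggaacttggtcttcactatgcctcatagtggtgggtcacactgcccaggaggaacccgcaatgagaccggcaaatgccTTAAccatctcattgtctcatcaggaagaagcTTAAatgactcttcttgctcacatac

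Insertions were compared with TTAA sites first. The interval held 91221 insertions at 6335 TTAA sites, or 14.4 per site, against 2.74 per site over all 19049403 sites of chromosomes 1 to 22 and X, which is 5.26-fold the density of the genome. With barcodes collapsed, so that each position and orientation counted once per library, it was 3.41-fold, and with at least 2 or 3 reads per insertion 5.83-fold and 6.52-fold. It thus took 0.175% of all insertions with 0.0333% of the sites. Of its TTAA sites, 77.9% were hit at least once, against 48.1% genome-wide, and 257 sites (4.06%) were hit in each of the 20 libraries, against 0.432% genome-wide. Among 2750 tiles of the same length, 6 were denser. Because the interval was chosen by its density, these values are a description and were not tested. The counts per library ranged from 2840 to 6140 insertions in the interval and from 1508684 to 3594563 on chromosomes 1 to 22 and X. Libraries of 1 helper with consecutive numbers shared barcodes more often than the others. Among TTAA sites and orientations hit once in each of 2 libraries, the barcode was the same in 6.50% ± 0.066 (SD, n = 100 pairs) between helpers. For consecutive replicate numbers of a helper it was the same in 12.1% ± 2.26 (SD, n = 18 pairs). For other pairs within a helper the value was 7.27% ± 1.37 (SD, n = 72 pairs). Results are therefore also given for odd and even numbers alone, which separates consecutive numbers. Other pairs within a helper still reached 15.5%, against at most 6.71% between helpers, so sharing may remain among odd or even numbers. The tests between helpers take libraries as independent, and sharing within a helper can make their p-values too small. The size of this effect was not tested. The library hyPBase-centrip replicate 3 stood apart in the insertions per library size of the interval, DLGAP1, MYL12B and SMCHD1, and results that rest on it are given without it.

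The density was not spread evenly. A bin was called dense where its pooled insertions per TTAA site reached 32.0, the 99th percentile of all 5 kb bins with at least 5 sites, and dense bins with at most 1 other bin between them were joined into a stretch. The interval had 23 dense bins in 8 stretches, which held 53.2% of its insertions in 11.9% of its length. The median 5 kb bin of the genome had 1.28 insertions per site. The bin nearest above the threshold had 33.5 insertions per site and the bin nearest below it 28.4, both inside DLGAP1. At the outer edges the density was 7.49 insertions per site in the first bin (percentile 92.4 of all bins) and 2.00 in the last, and it was 3.01 and 3.11 in the 100 kb on either side.

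**Figure D1:**
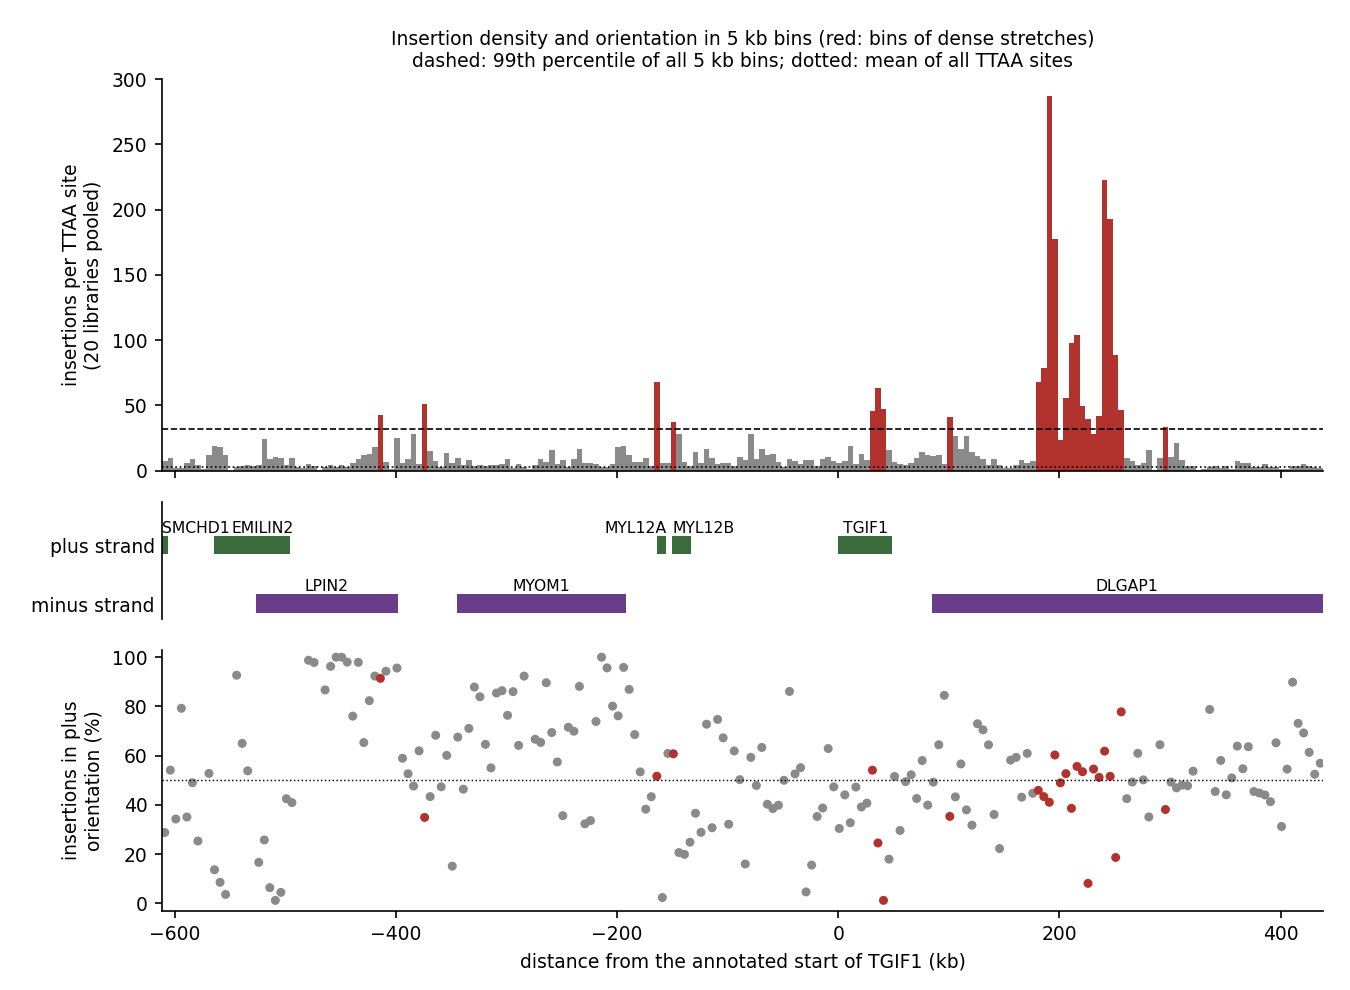
Insertion density (top, insertions per TTAA site in 5 kb bins, 20 libraries pooled), protein-coding genes by strand (middle) and the percent of insertions in plus orientation in bins with at least 50 insertions (bottom), against the distance in kb from the annotated start of TGIF1. The tallest bars, up to 287 insertions per site, stand in DLGAP1, and 11 of the 22 points over LPIN2, a gene of the minus strand, lie at 90% plus or more.

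The largest stretch lay neither in TGIF1 nor in EMILIN2 but in DLGAP1, which encodes a scaffold protein of the postsynaptic density. It spanned 80 kb at chr18:3590001-3670000, over DLGAP1-AS1, DLGAP1-AS2 and ENSG00000266401. Its 36393 insertions were 39.9% of those of the interval in 7.62% of its length, at 91.7 per TTAA site. The bodies of the 6 named genes together held 26.7% of the insertions with 38.7% of the TTAA sites, at 9.93 per site. The 5 densest bins of the interval were all in the largest stretch. The bin starting at 3600001, with part of DLGAP1-AS2, had 287 insertions per site and the bin next to it, starting at 3605001, had 177. The bins starting at 3650001 and 3655001, with ENSG00000266401, had 222 and 193. Between these pairs the bin starting at 3625001 reached 104, and the bins starting at 3610001 and 3640001 were below the threshold, at 23.9 and 28.4.

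The other stretches were shorter. TGIF1 held 1 of 15 kb at chr18:3440001-3455000, with 4941 insertions and 49.9 per TTAA site. The bin with the start of MYL12A, chr18:3245001-3250000, had 67.9 insertions per site, and the bin with the start of MYL12B, chr18:3260001-3265000, had 37.2. LPIN2 held 1 dense bin at chr18:2995001-3000000 with 42.5 per site, and the gap between LPIN2 and MYOM1 held 1 at chr18:3035001-3040000 with 51.2. DLGAP1 held 2 more single bins, chr18:3510001-3515000 with 41.0 and chr18:3705001-3710000 with 33.5. EMILIN2 and MYOM1 held no dense bin. Of the 15 long noncoding RNA genes annotated in the interval, 6 overlapped a stretch, namely DLGAP1-AS1, DLGAP1-AS2, ENSG00000266401, MYL12-AS1, and the pair ENSG00000265399 and ENSG00000272688 beside MYL12A.

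Over whole gene bodies, the order of density was TGIF1, MYL12A, MYL12B, DLGAP1, EMILIN2, LPIN2, MYOM1 and SMCHD1. TGIF1 had 24.8 insertions per TTAA site, at percentile 98.8 of 16025 protein-coding genes with at least 20 TTAA sites. MYL12A had 17.7 (percentile 97.3) and MYL12B 13.9 (95.4). EMILIN2, LPIN2 and MYOM1 lay lower, at 7.91, 7.73 and 6.54, which are percentiles 86.5, 85.8 and 80.8. SMCHD1, a protein of X inactivation whose last part enters the interval, was near the middle of all genes with 3.56. DLGAP1 had 8.05 over its 959 kb, but 23.2 in the part inside the interval and 1.32 in the part beyond it. Within single libraries, the density of DLGAP1 was above that of EMILIN2 in 10 of 20 and that of EMILIN2 above that of LPIN2 in 14 of 20, so these neighbours in the order did not stand apart beyond the spread of the libraries. The other steps of the order held in 18 of 20 libraries (MYL12A above MYL12B), 19 of 20 (LPIN2 above MYOM1) or 20 of 20. The order came from the same libraries pooled, so these counts are a description and not a test. The gaps between genes ranged from 5.66, between SMCHD1 and EMILIN2, to 15.3, between LPIN2 and MYOM1, the latter at percentile 93.3 of 11582 gaps.

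Around canonical starts the named genes were denser than over their whole bodies. Within 1 kb of the start of the annotated canonical transcript, TGIF1 had 219 insertions per TTAA site over 2 sites, MYL12A had 128 over 9, LPIN2 54.6 over 9, MYL12B 32.3 over 6, EMILIN2 18.7 over 3 and MYOM1 17.2 over 18. The few sites make these values coarse. Not every annotated start was dense. Within 1 kb of the RefSeq start of TGIF1 at 3412009 there were 4.80 insertions per site, at its start at 3451593 there were 3.50, and at the downstream start of MYL12A at 3252275 there were 4.96, all below the density of the gene body. The first intron was denser than the later introns in each of the 5 named genes whose first intron has a TTAA site, with 11.0 against 2.98 in LPIN2, 19.8 against 5.95 in MYOM1, 23.6 against 6.65 in MYL12A, 20.2 against 6.09 in MYL12B and 34.3 against 11.4 in TGIF1. DLGAP1 was the other way, with 0.682 insertions per site in the first intron of its canonical transcript and 12.4 in the later ones, and its dense part lies toward its 3′ end. Its own canonical start, far outside the interval, had 1.00 per site within 1 kb.

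The promoters of LPIN2 and MYL12A are shown because insertions were dense around both and each precedes the first RefSeq start of its gene. They are the 250 bases before the start in the RefSeq table of GRCh38.p14, 5′ to 3′ in the direction of the gene. Capitals mark GGGCGG on either strand, that is GGGCGG or CCGCCC.
LPIN2 promoter: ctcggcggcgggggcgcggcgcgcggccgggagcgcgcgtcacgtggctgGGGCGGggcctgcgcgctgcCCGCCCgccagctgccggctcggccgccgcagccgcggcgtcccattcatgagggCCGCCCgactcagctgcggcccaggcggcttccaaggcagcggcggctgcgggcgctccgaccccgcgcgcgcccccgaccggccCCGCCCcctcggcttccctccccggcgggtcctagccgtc
MYL12A promoter: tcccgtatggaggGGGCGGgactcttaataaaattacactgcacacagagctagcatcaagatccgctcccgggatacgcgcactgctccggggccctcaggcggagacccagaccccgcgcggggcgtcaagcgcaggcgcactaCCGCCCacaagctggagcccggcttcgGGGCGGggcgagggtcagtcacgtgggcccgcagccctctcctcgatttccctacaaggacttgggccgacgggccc
The LPIN2 sequence is chr18:3013145-3013394 on the minus strand and the MYL12A sequence chr18:3247232-3247481 on the plus strand. They hold 4 and 3 matches of GGGCGG, and within 1 kb of these starts were 54.6 and 141 insertions per TTAA site. The table lists 17 promoters for the 6 named genes. Of these, 10 hold GGGCGG on either strand, against 42.6% of 35116 listed promoters, and 1 holds TATAAA on either strand, against 10.7%. A match is a description of the letters in this window.

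Orientation was not used to choose the interval, so it was tested. For each gene the question was whether insertions lay in the orientation of the gene or opposite to it, with the log2 ratio of both per library compared with 0 in limma. In all genes tested, 91.0% departed from equal orientation (85.2% opposite to the gene and 5.82% in its direction), and for gaps the share was 69.3% (34.2% toward plus and 35.1% toward minus), so a departure alone is common. The median gene had a log2 ratio of -1.07. In the interval, 7 of the 8 genes departed toward the opposite orientation and DLGAP1 departed slightly toward its own.

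MYL12B had 13.3%, 16.1% and 22.9% of insertions in its orientation as the lowest, median and highest of the hyPBase libraries, and 13.3%, 21.9% and 31.1% in the hyPBase-centrip libraries. Its log2 ratio was -2.02 (SE 0.0783, limma adjusted p = 2.5e-26). All 20 libraries were below 50%. EMILIN2 had 14.0%, 21.0% and 27.2% with hyPBase and 15.0%, 19.3% and 25.5% with hyPBase-centrip (log2 ratio -1.97, SE 0.0706, limma adjusted p = 1.26e-27). LPIN2 had 17.2%, 24.2% and 28.2% with hyPBase and 23.6%, 25.2% and 30.6% with hyPBase-centrip (log2 ratio -1.58, SE 0.0444, limma adjusted p = 8.22e-31). Both genes were below 50% in 20 of 20 libraries, as was SMCHD1, with 11.8% to 20.8% over the libraries (log2 ratio -2.45, limma adjusted p = 1.83e-31). MYOM1 had 24.2%, 25.8% and 28.9% with hyPBase and 24.6%, 27.3% and 28.9% with hyPBase-centrip (log2 ratio -1.46, SE 0.0343, limma adjusted p = 2.02e-34). TGIF1 had 26.0%, 29.9% and 34.0% with hyPBase and 23.8%, 29.5% and 31.2% with hyPBase-centrip (log2 ratio -1.26, SE 0.0354, limma adjusted p = 1.8e-31). MYL12A had 35.3%, 40.3% and 42.9% with hyPBase and 28.3%, 36.9% and 47.8% with hyPBase-centrip (log2 ratio -0.70, SE 0.0743, limma adjusted p = 1.66e-11). Each of these 3 genes was also below 50% in 20 of 20 libraries. The size of the ratio depended on what was counted in MYL12A, with -1.13 at 3 or more reads and -1.18 with barcodes collapsed, and in TGIF1, with -0.77 with barcodes collapsed (limma adjusted p = 5.58e-11, 9.74e-15 and 2.15e-20).

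DLGAP1 was close to balanced. Its share in the orientation of the gene ran from 49.7% to 51.3% over the 20 libraries, above 50% in 17 of them. The log2 ratio was 0.03 (SE 0.01, limma adjusted p = 0.00396). This small excess turned into a deficit, at -0.02 (limma adjusted p = 0.186) with at least 3 reads per insertion and -0.04 (0.0154) when barcodes were collapsed, and it did not pass with at least 2 reads (0.01, limma adjusted p = 0.439) or with odd numbers alone (0.03, limma adjusted p = 0.0939). In the largest stretch the plus orientation made up 47.7% to 50.4% of insertions over the libraries.

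**Figure D2:**
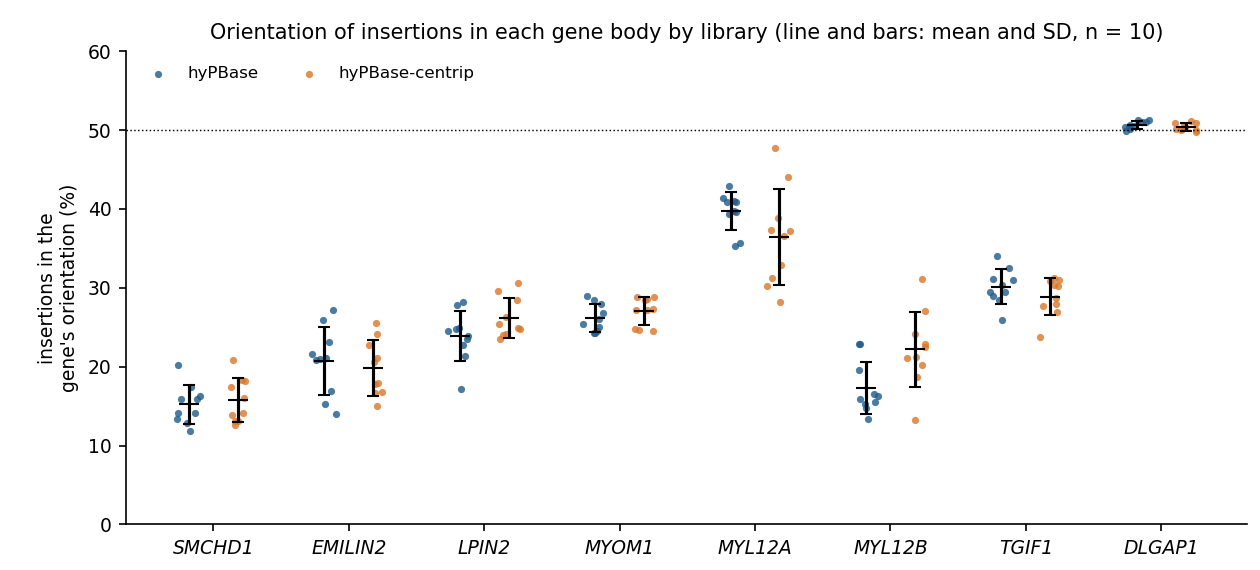
Percent of insertions in the orientation of the gene for each gene body, 1 point per library (blue hyPBase, orange hyPBase-centrip), with the mean and SD of 10 libraries and a dotted line at 50%. The points of all genes but DLGAP1 lie below the line, and those of DLGAP1 lie between 49.7% and 51.3%.

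Orientation also varied within genes. TGIF1 has several transcripts that start well downstream of its first annotated start. Before the first of the downstream starts, its insertions were 45.3% in the orientation of the gene (33.3% to 55.3% over the libraries), and from there to its end 7.60% (4.14% to 11.5%), with no overlap between these ranges. The 3 dense bins of TGIF1 had 54.1%, 24.5% and 1.24% plus insertions in the direction of transcription. EMILIN2, on the plus strand, and LPIN2, on the minus strand, overlap at chr18:2885296-2916003. There 15.8% of insertions had the orientation of EMILIN2 and 84.2% that of LPIN2, while outside the overlap LPIN2 had 13.6% in its own orientation and EMILIN2 23.8%. The dense bin of LPIN2 was 91.4% plus (85.4% to 95.7% over the libraries).

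Bins with at least 90% of insertions in 1 orientation were counted among those with at least 50 insertions. They made up 25 of 198 bins of the interval (12.6%), against 13.5% of 239943 bins of the genome. They fell unevenly, with 14 of 22 bins in LPIN2, 6 of 13 in EMILIN2 (3 of them shared with LPIN2), 4 of 30 in MYOM1, 1 of 3 in MYL12A, 1 of 10 in TGIF1, 1 of 67 in DLGAP1 and 1 in the gap between MYL12B and TGIF1. MYL12B had 0 of 4. The exception in DLGAP1 was the bin starting at 3635001, inside the largest stretch, with 8.14% plus. Among gaps, the 5.24 kb between MYL12A and MYL12B was the most one-sided, with 90.5% plus over 641 insertions (log2 ratio 3.26, SE 0.168, limma adjusted p = 1.73e-18). The gap before MYL12A was 58.3% plus (limma adjusted p = 2.68e-08) and the gap between MYL12B and TGIF1 46.1% plus (4.3e-08). The gap between LPIN2 and MYOM1, with 50.2% plus, did not pass the test (0.76), and the other two gaps passed it narrowly, SMCHD1 to EMILIN2 at 45.9% (0.0221) and TGIF1 to DLGAP1 at 47.3% (0.044). Both of these lost the call with odd or even replicate numbers alone. TGIF1 to DLGAP1 also lost it without hyPBase-centrip replicate 3 (limma adjusted p = 0.083). The log2 ratio of SMCHD1 to EMILIN2 was -0.24, with -0.23 for odd and -0.24 for even numbers. That of TGIF1 to DLGAP1 was -0.16, with -0.11 for odd numbers, -0.21 for even numbers and -0.14 without hyPBase-centrip replicate 3. With at least 2 and 3 reads per insertion the log2 ratio of TGIF1 to DLGAP1 turned from -0.16 to 0.04 and 0.11 (limma adjusted p = 0.704 and 0.411).

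The helpers were then compared. Expressed as CPM, the insertions scaled to a library of 1000000, the interval took 1684, 1764 and 1882 as the lowest, median and highest with hyPBase and 1653, 1710 and 2027 with hyPBase-centrip. The groups overlapped, and the means, 1778 ± 60.7 and 1751 ± 109 (SD, n = 10 each), did not differ beyond the spread (difference -27.8, two-sided permutation test p = 0.516). The highest value was that of hyPBase-centrip replicate 3. Without it the difference was -58.6 (exact permutation test, p = 0.0372, n = 10 and 9). It was one of the 3 libraries with the fewest insertions, and the other two, hyPBase replicates 8 and 9, had the highest values of their helper. Without all 3 the difference was -33.3 (exact permutation test, p = 0.14, n = 8 and 9). With odd replicate numbers it was 7.78 and with even numbers -63.4 (exact permutation tests, p = 0.913 and 0.111, n = 5 each). Among insertions with at least 2 reads the difference was 43.8, and with at least 3 reads 126 (permutation tests, p = 0.595 and 0.205).

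Gene by gene, 2 of the 14 genes and gaps passed the edgeR test across 22452 genes and gaps, of which 2.19% passed (0.82% higher and 1.37% lower with hyPBase-centrip). MYOM1 had 112, 117 and 126 CPM with hyPBase and 117, 130 and 144 with hyPBase-centrip, means 118 ± 5.38 and 130 ± 7.03 (SD, n = 10 each). It was higher with hyPBase-centrip by a log2 fold change of 0.14 (SE 0.0385, edgeR adjusted p = 0.0305). TGIF1 had 139, 150 and 159 CPM with hyPBase and 123, 135 and 148 with hyPBase-centrip, means 149 ± 6.35 and 136 ± 7.71 (SD, n = 10 each). It was lower with hyPBase-centrip, at -0.13 (SE 0.0369, edgeR adjusted p = 0.0358). In both genes the groups overlapped. Neither call held with odd or with even replicate numbers alone, with at least 2 or 3 reads per insertion or with barcodes collapsed, where the adjusted p of MYOM1 reached 0.761 and that of TGIF1 0.783. MYOM1 also did not pass without the 3 smallest libraries (0.12, edgeR adjusted p = 0.0606), where TGIF1 did (-0.12, 0.0477). TGIF1 did not pass without TMM scaling (-0.12, edgeR adjusted p = 0.0625) or with library size as a covariate (-0.11, 0.0714). The direction of both stayed the same in all 12 alternatives run. The log2 fold change of MYOM1 was 0.14 with odd and 0.14 with even numbers, 0.13 and 0.14 with at least 2 and 3 reads and 0.07 with barcodes collapsed. That of TGIF1 was -0.14 and -0.12 with odd and even numbers, -0.08 and -0.04 with at least 2 and 3 reads and -0.08 with barcodes collapsed.

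The other members did not pass. EMILIN2 had 35.0, 44.3 and 48.8 CPM with hyPBase and 35.2, 43.0 and 53.6 with hyPBase-centrip, at a log2 fold change of 0.0028 (SE 0.0623, edgeR adjusted p = 0.991). LPIN2 had 106, 119 and 130 CPM with hyPBase and 109, 117 and 123 with hyPBase-centrip (-0.04, SE 0.0389, edgeR adjusted p = 0.709). For these genes the ranges of the helpers overlapped over most of their length. SMCHD1 averaged 92.8 CPM (SD 6.27) in the hyPBase libraries and 87.7 CPM (SD 7.99) in those of hyPBase-centrip, at a log2 fold change of -0.07 (edgeR adjusted p = 0.466). MYL12A had 21.7, 28.9 and 32.3 CPM with hyPBase and 20.9, 28.8 and 31.4 with hyPBase-centrip (-0.02, SE 0.0765, edgeR adjusted p = 0.945). MYL12B had 27.9, 29.8 and 33.9 CPM with hyPBase and 29.5, 32.0 and 42.1 with hyPBase-centrip (0.11, SE 0.0698, edgeR adjusted p = 0.509). DLGAP1, with by far the most insertions of the 8 genes, had 1036, 1072 and 1234 CPM with hyPBase and 984, 1026 and 1246 with hyPBase-centrip (-0.06, SE 0.0314, edgeR adjusted p = 0.341). It passed without hyPBase-centrip replicate 3, its highest library (-0.09, edgeR adjusted p = 0.00932), where 2.2% of all genes and gaps passed. DLGAP1 did not pass without the 3 smallest libraries (-0.06, edgeR adjusted p = 0.117), with library size as a covariate (-0.01, 0.845) or with at least 2 reads (-0.0012, 0.996). Without hyPBase-centrip replicate 3 MYL12B was at 0.08 and SMCHD1 at -0.05 (edgeR adjusted p = 0.683 and 0.67). Of the gaps, the one between LPIN2 and MYOM1 had the smallest adjusted p (-0.13, SE 0.0442, edgeR adjusted p = 0.0821).

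**Figure D3:**
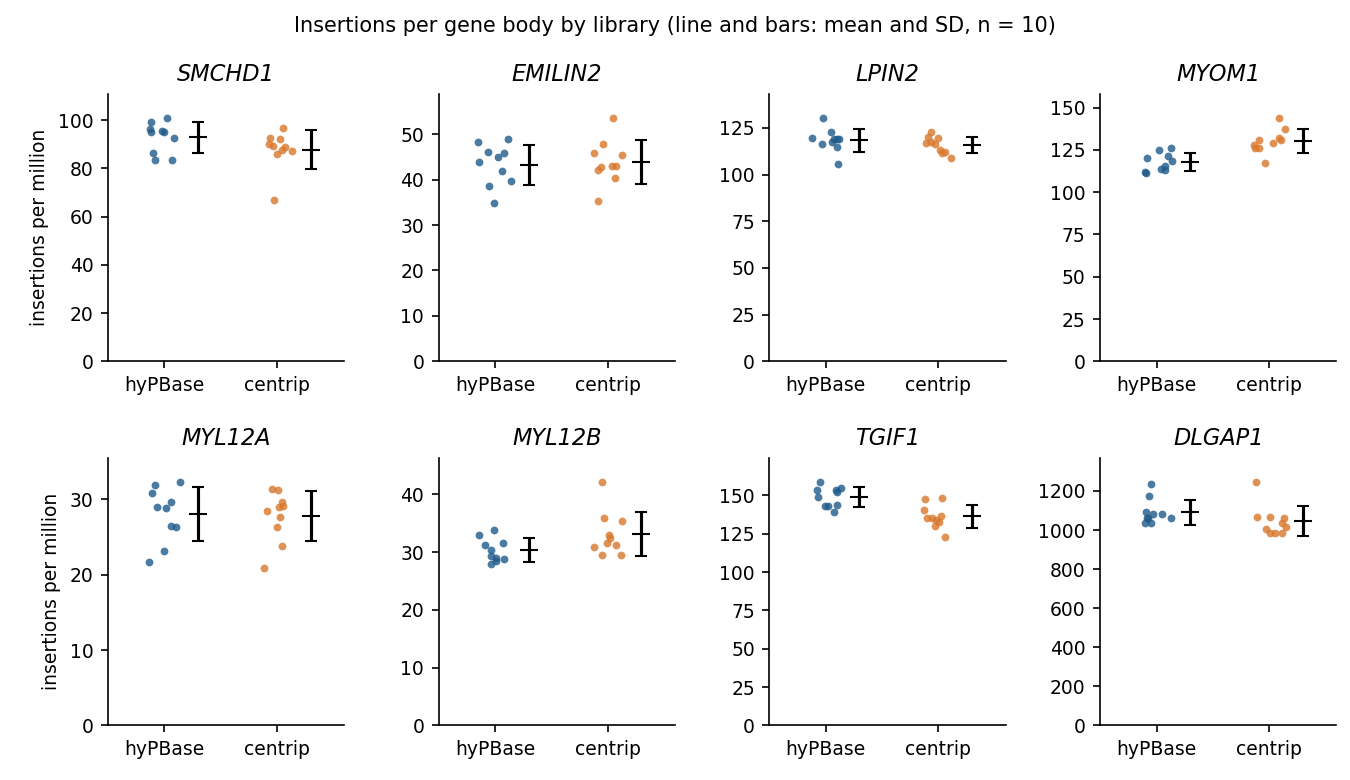
CPM in each gene body, 1 point per library, with the mean and SD of 10 libraries per helper (centrip stands for hyPBase-centrip). The helpers overlap in each of the 8 genes, and the lone high point of DLGAP1 with hyPBase-centrip is 1246.

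**Figure D4:**
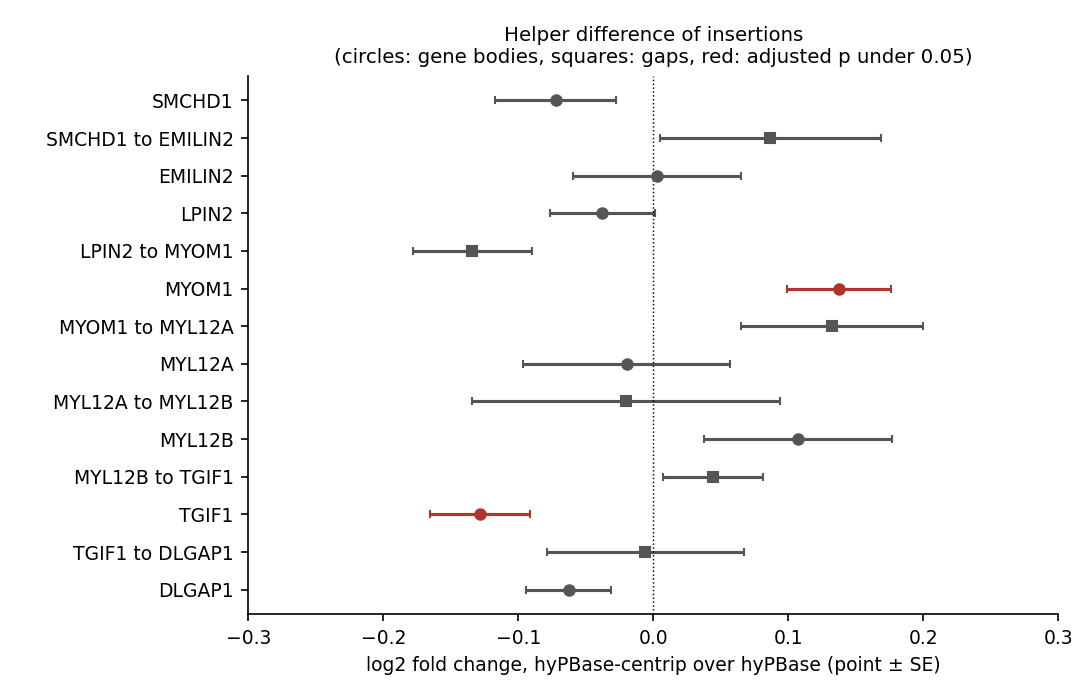
Log2 fold change of insertions between helpers for the 8 genes and 6 gaps in genome order, with SE from edgeR. Red points, MYOM1 at 0.14 and TGIF1 at -0.13, have an adjusted p under 0.05.

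In 5 kb bins, 3 of 118 bins tested passed the edgeR test, against 1.56% of 56017 bins, and all 3 were lower with hyPBase-centrip, against 1.05% (0.516% were higher). They were the dense bin between LPIN2 and MYOM1 starting at 3035001, the first dense bin of TGIF1 starting at 3440001 and the bin of DLGAP1 starting at 3615001. The bin between LPIN2 and MYOM1 had 29.2 ± 2.15 CPM with hyPBase and 24.1 ± 2.31 with hyPBase-centrip (SD, 10 libraries each). Its log2 fold change was -0.29 (SE 0.0738, edgeR adjusted p = 0.0192). The bin of TGIF1 had 42.7 ± 3.95 and 36.4 ± 3.78 (log2 fold change -0.24, SE 0.063, edgeR adjusted p = 0.0202), and the bin of DLGAP1 26.7 ± 4.79 and 21.2 ± 2.08 (-0.31, SE 0.0803, edgeR adjusted p = 0.0187). No bin passed with odd or with even numbers alone, with at least 2 or 3 reads per insertion or with barcodes collapsed, and the bin of DLGAP1 also did not pass with library size as a covariate (-0.25, edgeR adjusted p = 0.106) or without the 3 smallest libraries (-0.25, 0.133). With odd numbers the log2 fold changes of these bins were -0.33, -0.34 and -0.35, and with even numbers -0.25, -0.14 and -0.28. They were -0.26, -0.29 and -0.27 with at least 2 reads, -0.17, -0.35 and -0.19 with at least 3, and -0.15, -0.14 and -0.13 with barcodes collapsed. The largest stretch had 664, 714 and 850 CPM with hyPBase and 631, 664 and 869 with hyPBase-centrip, with overlapping groups. Each helper's libraries alone gave the same 22 dense bins, and hyPBase-centrip gave 1 more. The difference in orientation between helpers passed the limma test in 0 of 14 genes and gaps, against 0.897% of 18064, with 2 of the 14 at an unadjusted p under 0.05, MYL12B (0.00993) and LPIN2 (0.0478), against 12.5% of all.

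The fullest sites approached the number of insertions that the records can hold. With 20 libraries, 2 orientations and 21 barcodes in common use, a TTAA site can hold 840. Counting common barcodes only, site 1 held 792 insertions, 94.3% of this number, and site 2 held 737, or 87.7%. Over all barcodes site 1 had 35 to 42 insertions in each library. In all, 15 sites held at least 50% of it, 14 of them in the largest stretch, and these 15 held 9.59% of the insertions of the interval. The top 1% of TTAA sites, 64 sites, held 26.5%, while 1401 sites were never hit. A site near this number cannot record many further events. Leaving the 15 sites out gave a helper difference of -12.9 CPM for the interval (permutation test p = 0.692).

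Reads behind each insertion were higher in the interval than elsewhere. The interval had 5.68 ± 1.12 reads per insertion with hyPBase and 4.45 ± 1.00 with hyPBase-centrip, against 3.87 ± 0.732 and 3.00 ± 0.541 over all insertions of the same libraries (SD, n = 10 each), and was higher in 20 of 20 libraries. Reads per insertion rose with the number of insertions at a site. In the interval they were 3.47 at sites with 1 to 9 insertions, 5.98 at sites with 200 to 399 and 10.1 at sites with 400 or more, against 2.97, 4.93 and 8.14 at such sites in the rest of the genome. The helper difference of the interval changed sign with a minimum of reads per insertion, and the part of these reads in that change was not tested.

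**Figure D5:**
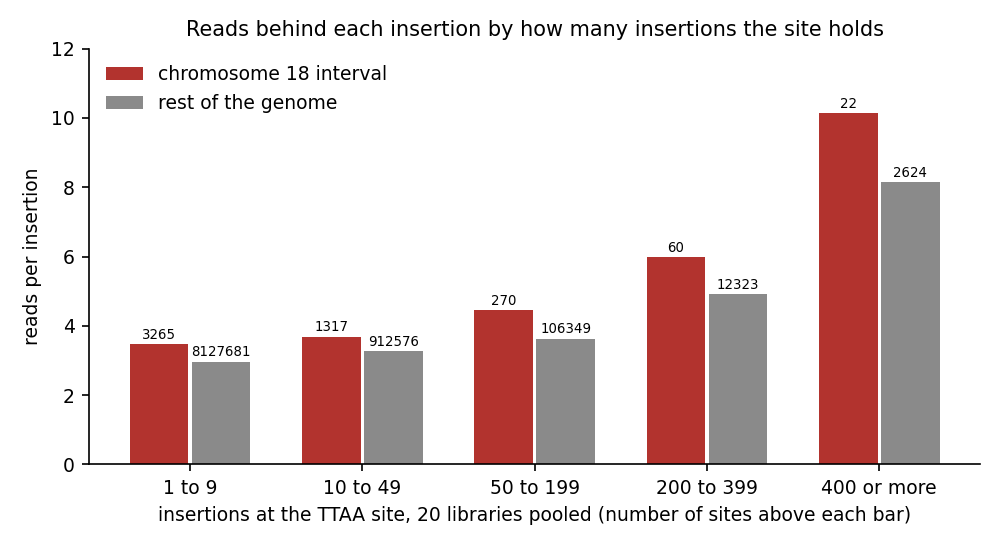
Reads per insertion at TTAA sites grouped by how many pooled insertions they held, in the chromosome 18 interval (red) and the rest of the genome (grey), with the number of sites above each bar. The bars rise from 3.47 to 10.1 in the interval and from 2.97 to 8.14 elsewhere.

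The bases next to the TTAA went with density as well. The 1323 sites of the interval with a T before and an A after held 19.6 insertions per site and the other 5012 held 13.0. The ratio of these densities averaged 1.5 (SD 0.0429) in the 10 hyPBase libraries and 1.51 (SD 0.0568) in the 10 hyPBase-centrip libraries, above 1 in 20 of 20 libraries.

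The other genes of the same families, on other chromosomes, served as the related genes for comparison. The list had 18 genes, among them other lipins, myomesins, EMILIN and multimerin genes, TGIF2, the other DLGAP genes, and light and heavy chains of smooth muscle and nonmuscle myosin. Their median density was 2.55 insertions per TTAA site. EMILIN1, also a glycoprotein of elastic fibres, was the densest at 6.22 over 9 sites, followed by the myosin light chain MYL6 at 5.17, the lipin LPIN1 at 5.02 and the multimerin MMRN2 at 4.76. The 6 named genes ranged from 6.54 upward, but they come from an interval chosen by its density, so the densities of the lists are not compared. Between helpers, 0 of the 11 tested passed in edgeR and 0 in DESeq2, with 4 at an unadjusted edgeR p under 0.05, against 14.9% of all genes and gaps tested. For orientation, 9 of the 10 tested lay opposite to the gene and 1 in its direction, DLGAP2, a relative of DLGAP1, with a log2 ratio of 0.30, against 85.2% and 5.82% of all genes tested.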

How the data were processed

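Insertions were mapped with barcoded self-reporting transposons in K562 cells. For every library the authors deposited a table of insertions (qbed format), with the hg38 position, the read count, the orientation and the barcode of each. These counts are raw. Trimmomatic, BWA and SAMtools are named in the submitters' processing notes, without versions, and filters are not given in the sources used here. The 2 libraries whose labels name different helpers were not used. Each record was counted as 1 insertion, giving 1508684 to 3594563 on chromosomes 1 to 22 and X. The hg38 sequence gave the TTAA sites and GENCODE 44 the genes.

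The members and lists were chosen with earlier results of these data known. Named are the 6 genes, every other protein-coding gene and gap of the interval, long noncoding RNA genes in dense stretches, the 5 densest bins and up to 3 called bins in each direction, the 10 fullest sites, and the 4 densest of the related genes, with DLGAP2 added after its values were seen. Genes and gaps, and 5 kb bins, were kept where 10 or more libraries had 10 or more insertions, and compared with edgeR 4.0.16 (TMM, quasi-likelihood test, Benjamini-Hochberg over all features, threshold 0.05) in R 4.3.3. CPM of genes, gaps and bins are TMM-scaled, those of the interval and its stretches are not. Orientation was tested with limma 3.58.1 on log2 ratios with 0.5 added, over features with 20 or more insertions in 10 or more libraries. The interval was compared by permutation tests (100000 resamples, exact for groups under 10). On simulated counts edgeR recovered 81.5% of genes and gaps changed 1.5-fold and 37.0% of such 5 kb bins. The simulated libraries were independent and had the same assumed dispersion for every feature. Changes as small as those called in the interval were not simulated. Alternatives covered reads per insertion, barcodes, libraries, normalization, filters, thresholds and bins, with DESeq2 1.42.0 as another tool. The settings on counts of reads, crowded sites and the 3 smallest libraries were added after the data were seen.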

Additional observations from a re-analysis of the deposited data

Results flagged for a closer look

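In 60 groups of 10 libraries (CPM and reads per insertion of the interval, and CPM and orientation of genes and gaps, per helper), 4 had a library far from the others by Dixon's criterion. Chance flags about 1 in 20 groups, here 3. All 4 were hyPBase-centrip replicate 3, the library with the fewest insertions of its helper. It had the highest CPM of the interval, 2027, with the next library at 1813. It also had the highest CPM in DLGAP1, 1246 against 1069, and in MYL12B, 42.1 against 36.0, and the lowest in SMCHD1, 66.8 against 85.8.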

How the results depend on the processing

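The opposite orientation of SMCHD1, EMILIN2, LPIN2, MYOM1, MYL12A, MYL12B and TGIF1 passed the limma test in each of 7 alternatives, and the orientation difference between helpers had 0 genes or gaps called in each of its 8 alternatives. Over all genes and gaps, 74.3% to 82.3% departed from equal orientation in these alternatives, and 0.0668% to 1.15% differed in orientation between helpers. Such counts are therefore common among all features. Between helpers, only insertions with at least 2 reads, or at least 3, barcodes collapsed, odd replicate numbers and even replicate numbers each left 0 genes and gaps and 0 bins called. Over all features these settings called 1.91%, 2.78%, 0.13%, 0.381% and 0.188% of genes and gaps and 2.17%, 4.01%, 0.0%, 0.0892% and 0.135% of bins. Library totals without TMM, and log library size as a covariate, each left 1 gene called, MYOM1, against 2.19% and 4.02% of all genes and gaps. Leaving out the 3 libraries with the fewest insertions, chosen after seeing the data, left 1 gene, TGIF1 (2.53% of all), and 2 bins (1.15%). Calls rose without hyPBase-centrip replicate 3, to 3 of 14 genes and gaps (2.2% of all) and 4 of 117 bins (1.37%). For the CPM of the interval the difference was 43.8 with at least 2 reads, 126 with at least 3 and 7.78 with odd numbers, and without hyPBase-centrip replicate 3 it was -58.6. Dense bins numbered 66 in 19 stretches at the 95th percentile, 14 with 10 kb bins and 12 when the share of TTAA sites hit was used. The cause of these changes was not tested, except that fewer bins or libraries entered some of them.

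Several log2 fold changes that had not passed the test changed sign. MYL12A was at 0.00182 with at least 2 reads, 0.099 with at least 3, 0.0223 with barcodes collapsed, 0.0314 with even numbers and 0.00015 with library size as a covariate. EMILIN2 was at -0.0861 with barcodes collapsed, -0.0502 with odd numbers, -0.00183 with at least 50 insertions over all libraries, -0.0197 without hyPBase-centrip replicate 3 and -0.0104 without the 3 smallest libraries. LPIN2 was at 0.0642 with at least 3 reads and 0.00482 with even numbers, and DLGAP1 at 0.0613 with at least 3 reads. Of the gaps, TGIF1 to DLGAP1 was at 0.00181 with barcodes collapsed, 0.0802 with odd numbers, 0.00568 without TMM and 0.019 with the covariate, MYL12B to TGIF1 at -0.0211 with barcodes collapsed and -0.0304 with even numbers, MYL12A to MYL12B at 0.0825 with even numbers and 0.00292 without hyPBase-centrip replicate 3, and SMCHD1 to EMILIN2 at -0.0336 with even numbers. Orientation log2 ratios near 0 also turned, DLGAP1 to -0.0222 with at least 3 reads and -0.042 with barcodes collapsed, TGIF1 to DLGAP1 to 0.0418 and 0.108 with at least 2 and 3 reads, and LPIN2 to MYOM1 to -0.0059 with at least 2 reads and -0.0286 with odd numbers.

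Whether the replicate numbers pair the libraries was not settled. Of 10 pairs of the same number, 0 had deviations from the helper mean correlated above 0.1, which gave no sign of a pairing but cannot exclude one. With the replicate number as a block, 2 of 14 genes and gaps and 3 of 118 bins were called, against 2.01% and 1.45% of all, and the interval's difference of -27.8 CPM had an exact sign-flip permutation p of 0.598 (n = 10 pairs). Insertions are counted by at most 21 common barcodes per site, orientation and library, which limits the count at the fullest sites.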
